A study of Mus musculus with 16 samples.

Results

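The 7 genes described here are the class IIa histone deacetylase genes Hdac4, Hdac5, Hdac7 and Hdac9 and the genes of their transcription factor partners Mef2a, Mef2c and Mef2d. They were taken by name from the 54838 gene identifiers in the files, and all 7 passed the filter on low counts, which left 12612 genes for testing. The libraries hold total RNA of bone marrow-derived macrophages, cells grown from mouse bone marrow in medium conditioned by L929 cells. All groups are Apoe-deficient, with C57BL/6J given as the strain and B6.129P2-Apoetm1Unc/J as the genotype. The TMP195+TNFα group received TMP195 at 5 µM for 1 h and then TNFα at 50 ng/ml for 24 h. The TPCA-1+TNFα group received TPCA-1 at 500 nM for 1 h before the same TNFα stimulation, the TNFα group TNFα alone, and the DMSO group DMSO with no TNFα. TMP195 inhibits the catalytic domain of class IIa HDACs, and TPCA-1 inhibits the kinase IKK2. Each group has 4 libraries, numbered 1 to 4; the labels do not say whether these came from separate animals or cultures, so p-values measure only the spread between these libraries. Whether DMSO was also added in the TNFα group is not stated there.

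Class IIa HDACs carry a long N-terminal part that binds MEF2 factors and corepressors, while their deacetylase activity on standard substrates is weak. When kinases phosphorylate them, 14-3-3 proteins bind them and carry them out of the nucleus, which frees MEF2 to activate its targets. MEF2 factors bind an AT-rich DNA element and are best known from muscle, neurons, lymphocytes and endothelium. HDAC9, named in the title of the series, is a candidate gene for atherosclerotic vascular disease in humans.

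Reads counted on genes came to 18562773 to 31596572 in 15 libraries and 7489066 in TPCA-1+TNFα replicate 2, where 44.0% of the reads did not map; in the others this share was 4.003% to 7.11%. Apoe had 1 to 11 reads per library. Macrophage markers were abundant, with all 10 listed genes tested, led by the lysozyme gene Lyz2 at 5197 to 15992 CPM (counts scaled to a library of 1000000 reads). Of the B cell markers Ighm had 131 to 1420 and Cd79b 177 to 999 reads per library, while Pax5 had 0 in all. Of the T cell markers Cd4 had 62 to 308 reads per library, while Cd3e, Cd3d and Cd8a had fewer than 3 in each.

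The levels of the 7 genes differed widely. Set against exon length (CPM per kb of exon, RPKM), Mef2d and Mef2a were highest, at 17.7 ± 4.36 and 12.4 ± 0.79 RPKM in DMSO (SD, n = 4 here and below). Mef2c followed at 4.72 ± 0.68 RPKM and Hdac5 at 3.72 ± 0.85 RPKM. Hdac9, Hdac4 and Hdac7 were lowest, at 0.85 ± 0.18, 0.80 ± 0.19 and 0.71 ± 0.16 RPKM. In reads, Hdac9 had 24 to 331 per library and Hdac7 25 to 171, with the lowest count of each in TPCA-1+TNFα replicate 2. Hdac7 was also the gene with the most reads on its opposite strand, 14.3% to 40.5% of all reads over it, where the gene Slc48a1, at group means of 341 to 581 CPM, overlaps 0.43% of its exon bases. Reads were counted by strand, and the part of this overlap in the values of Hdac7 was not tested. The other 6 genes had at most 1.32% of their reads there.

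**Figure D1:**
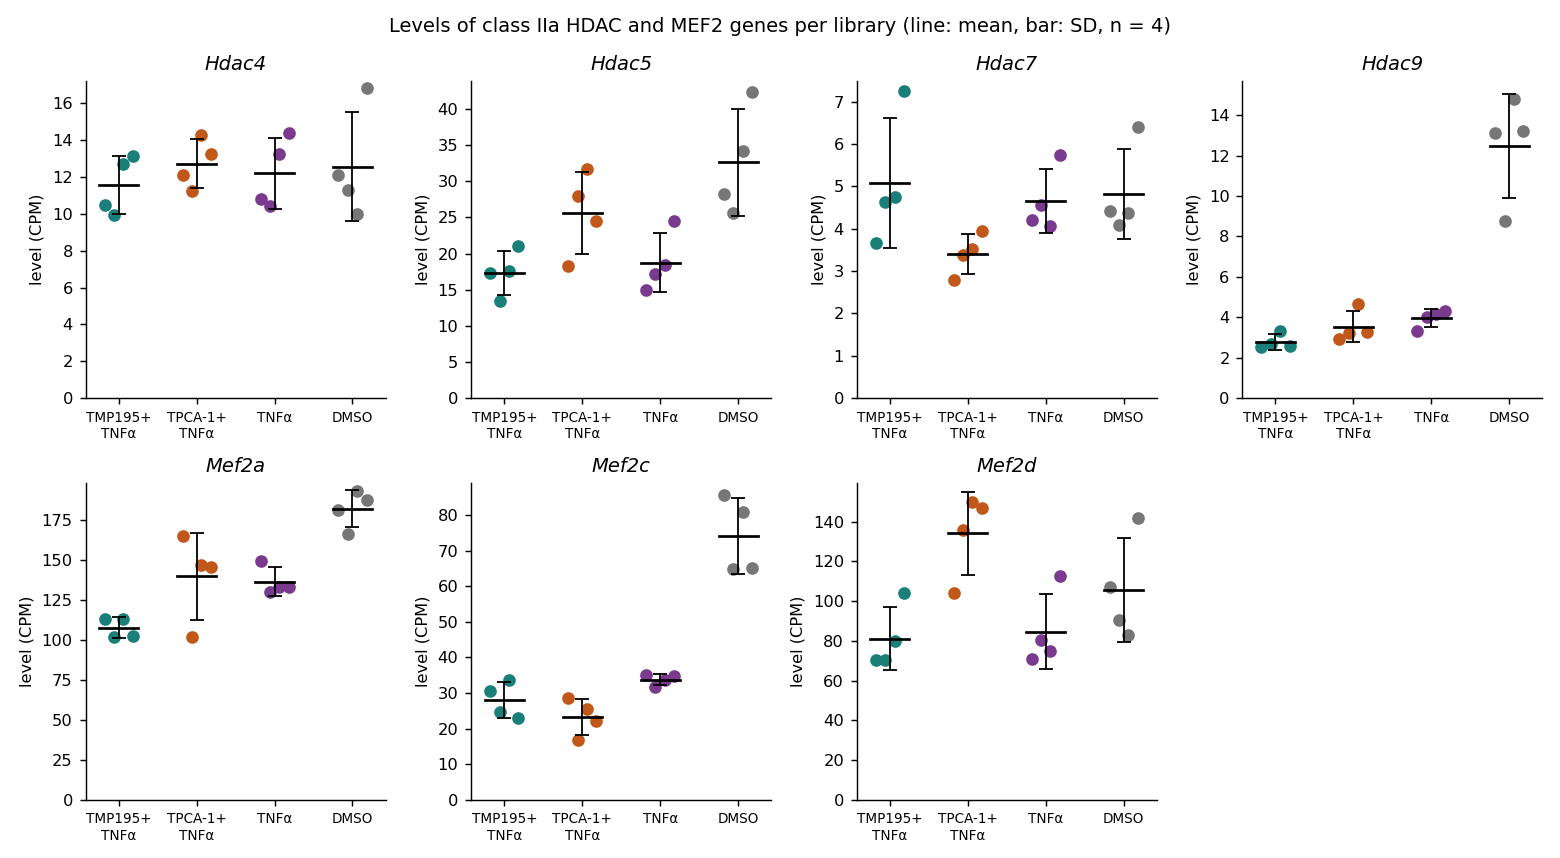
Levels in CPM (vertical axis from 0) of the 4 class IIa HDAC genes and the 3 MEF2 genes, with 1 point per library, the mean as a line and the SD as a bar (n = 4 per group). Hdac9 lies between 2.51 and 4.66 CPM in all 12 libraries given TNFα and between 8.77 and 14.8 CPM in the 4 DMSO libraries.

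TNFα lowered Hdac9, Mef2c, Hdac5 and Mef2a after 24 h. This was 4 of 7 genes lower and 0 higher, where 12.4% of all tested genes were lower and 10.9% higher (edgeR quasi-likelihood test, Benjamini-Hochberg adjusted p under 0.05 over 12612 genes). The median log2 fold change of the 7 genes was -0.42, against 0.00177 for all tested genes. In bulk RNA, fewer cells of a kind and less RNA per cell cannot be told apart. In the same 4 genes all TNFα libraries were below all DMSO libraries, which held in this direction for 14.3% of all tested genes and in either direction for 27.2%. Of the 10 macrophage markers 4 were lower and 1 higher here, with summed levels of 18200 to 26315 CPM in TNFα and 16775 to 25859 CPM in DMSO, and their part in these changes was not tested.

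Hdac9 (ENSMUSG00000004698, GRCm38 chromosome 12, 34047580 to 34917095, minus strand), a repressor of MEF2 activity, had the largest change. Its levels were 3.30, 4.02, 4.17 and 4.29 CPM in TNFα 1 to 4, against 13.1, 8.77, 14.8 and 13.2 CPM in DMSO 1 to 4. The groups were far apart, with DMSO 2 the lowest of the DMSO libraries and still above every TNFα library. The log2 fold change was -1.66 ± 0.18 (SE; adjusted p = 3.45e-06), a level 3.15-fold lower, and 324 of the 12612 tested genes had a more negative change.

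Mef2c (ENSMUSG00000005583, chromosome 13, 83504034 to 83667080, plus strand), a MEF2 factor needed in heart development and B cells, stood at 35.1, 31.6, 33.75 and 34.7 CPM in TNFα 1 to 4, against 85.7, 64.9, 80.9 and 65.1 CPM in DMSO 1 to 4. The TNFα libraries were tightly grouped and all lay well under the DMSO libraries. The log2 fold change was -1.13 ± 0.15 (adjusted p = 2.84e-05). B cell markers also fell here: both tested members of that list, Cd79b (-0.83 ± 0.19, adjusted p = 0.00407) and Ighm (-1.22 ± 0.30, adjusted p = 0.00535), were lower, and the summed level of the listed markers was 28.1 to 52.5 CPM in TNFα and 63.04 to 111.4 CPM in DMSO. In TPCA-1+TNFα the same sum was 54.5 to 110.7 CPM. The part of these markers in the levels of Mef2c was not tested.

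Hdac5 (ENSMUSG00000008855, chromosome 11, 102194432 to 102230166, minus strand), a deacetylase that leaves the nucleus when protein kinase D or CaM kinase is active, had 14.9, 17.2, 18.4 and 24.5 CPM in TNFα 1 to 4, against 28.3, 25.6, 34.2 and 42.4 CPM in DMSO 1 to 4. The highest TNFα library, number 4, was just under the lowest DMSO library, and number 4 was the highest in both groups. Its log2 fold change was -0.80 ± 0.20 (adjusted p = 0.00622). Mef2a (ENSMUSG00000030557, chromosome 7, 67231163 to 67372858, minus strand), the broadly expressed MEF2 factor, stood at 149.7, 130.2, 133.5 and 133.2 CPM in TNFα 1 to 4, against 181.6, 166.6, 193.4 and 187.9 CPM in DMSO 1 to 4. The fall was the smallest of the 4 but the groups did not overlap (-0.42 ± 0.12, adjusted p = 0.0154). Its call ended without DMSO 3 (-0.38, adjusted p = 0.0525).

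Mef2d, Hdac4 and Hdac7 did not pass. Mef2d (ENSMUSG00000001419, chromosome 3, 88142372 to 88172086, plus strand), a MEF2 factor found in most cell types, had 70.6, 80.4, 74.99 and 112.5 CPM in TNFα 1 to 4, against 107.3, 90.6, 83.2 and 141.9 CPM in DMSO 1 to 4. The 2 groups overlap, and number 4 was the highest in both. The change was -0.32 ± 0.19 (adjusted p = 0.254). In a fit blocked on the replicate number (same-numbered libraries of these groups deviated together), it was -0.32 ± 0.12 (adjusted p = 0.0484), lower in 4 of 4 pairs, and with limma quality weights it was -0.35 ± 0.13 (adjusted p = 0.0485). Hdac4 (ENSMUSG00000026313, chromosome 1, 91928779 to 92195699, minus strand), the relative of Hdac5 known for restraining cartilage and muscle growth, ranged from 10.4 to 14.4 CPM in TNFα and from 10.01 to 16.9 CPM in DMSO (-0.04 ± 0.16, 95% interval -0.38 to 0.31, adjusted p = 0.906). Hdac7 (ENSMUSG00000022475, chromosome 15, 97792664 to 97844502, minus strand), known from endothelium and lymphocytes, ranged from 4.08 to 5.74 CPM in TNFα and from 4.09 to 6.40 CPM in DMSO (-0.05 ± 0.21, 95% interval -0.50 to 0.39, adjusted p = 0.902).

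Start regions are described because MEF2 factors and the pathways downstream of TNFα bind known DNA elements. Those of Hdac5, Mef2a and Hdac9, which fell, are shown, and those of Mef2c, which fell too, are not. RefSeq (build GRCm38.p6) gave 13 start sites for the 7 genes, with 250 bases before and 50 after each. The MEF2 consensus, searched on both strands, was found in 2 of the 13 windows, those of Hdac5 and Mef2a, and in 3.19% of the 32851 windows of all genes. In Hdac5 the match CTATTTTTAG lies 20 to 11 bases before the start site, and in Mef2a the match CTAAAAATAG runs from 2 bases before it to base 8. Hdac9, with the largest fall, held the consensus in neither of its 2 windows. An AP-1 site (TGANTCA, both strands) was in 3 of the 13 windows and in 7.81% of all windows. The 3 windows were that of the inner Hdac9 start site, 1 of Mef2c and 1 of Hdac7. Hdac7 was not called in TNFα against DMSO. The NF-kB consensus was in 0 of the 13 windows and in 4.51% of all. These matches are letters in a window and not evidence of binding. The windows of Hdac5, Mef2a and Hdac9 follow 5′ to 3′ on the gene's strand, with motif matches in capitals: the MEF2 consensus in Hdac5 and Mef2a and the AP-1 site in the inner Hdac9 window.
Hdac5, chr11:102230123-102230422, minus strand: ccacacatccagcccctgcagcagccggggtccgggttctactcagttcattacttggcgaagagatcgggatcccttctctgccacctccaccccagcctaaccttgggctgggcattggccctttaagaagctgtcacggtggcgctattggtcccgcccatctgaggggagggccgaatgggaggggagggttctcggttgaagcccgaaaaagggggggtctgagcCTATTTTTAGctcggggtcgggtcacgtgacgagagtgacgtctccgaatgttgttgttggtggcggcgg
Mef2a, chr7:67372809-67373108, minus strand: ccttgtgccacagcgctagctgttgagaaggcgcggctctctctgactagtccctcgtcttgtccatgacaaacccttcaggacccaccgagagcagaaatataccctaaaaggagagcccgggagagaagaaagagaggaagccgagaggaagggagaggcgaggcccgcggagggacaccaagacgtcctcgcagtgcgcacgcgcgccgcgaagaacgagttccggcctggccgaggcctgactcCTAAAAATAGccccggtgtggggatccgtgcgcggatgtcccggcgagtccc
Hdac9 outer start site, chr12:34917046-34917345, minus strand: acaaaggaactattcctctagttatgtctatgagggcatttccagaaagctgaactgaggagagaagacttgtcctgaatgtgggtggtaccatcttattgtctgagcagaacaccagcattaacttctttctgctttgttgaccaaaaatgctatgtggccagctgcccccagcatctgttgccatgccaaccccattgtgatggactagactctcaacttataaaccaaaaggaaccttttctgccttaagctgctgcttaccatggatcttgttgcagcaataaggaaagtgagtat
Hdac9 inner start site, chr12:34528840-34529139, minus strand: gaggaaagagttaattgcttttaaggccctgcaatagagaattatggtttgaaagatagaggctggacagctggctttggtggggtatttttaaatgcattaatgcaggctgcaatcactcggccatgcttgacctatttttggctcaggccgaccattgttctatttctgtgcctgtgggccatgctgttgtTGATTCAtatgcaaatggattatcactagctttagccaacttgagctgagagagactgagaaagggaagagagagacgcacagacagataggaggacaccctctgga
The 2 Hdac9 start sites lie in 1 gene of 869.5 kb, and counts per gene do not separate transcripts that begin at one from those that begin at the other.

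The second comparison asks what TMP195, the inhibitor of these deacetylases, did to the genes of its own targets in cells given TNFα. None of the 7 genes passed the test, where 5.95% of all tested genes did, 2.95% higher and the rest lower (2 of 7 had an unadjusted p under 0.05). DESeq2 and limma with quality weights each called 1 of the 7, Mef2a. Of all genes they called 1209 and 1778, against 750 in the main fit. The median log2 fold change was -0.11 over the 7 genes and 0.0151 over all tested genes. Hdac9 had 2.51, 2.67, 3.33 and 2.59 CPM in TMP195+TNFα 1 to 4, against 3.30, 4.02, 4.17 and 4.29 CPM in TNFα 1 to 4. Only TMP195+TNFα 3 and TNFα 1 overlapped, and each TMP195+TNFα library was below the TNFα library of its own number. The change was -0.51 ± 0.19 (adjusted p = 0.134), and -0.51 ± 0.16 with the replicate block (adjusted p = 0.0472).

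Mef2a stood at 113.3, 101.7, 113.2 and 102.3 CPM in TMP195+TNFα 1 to 4, all below the lowest TNFα library at 130.2 CPM, a separation in this direction that held for 7.00% of all tested genes, with 8.03% separated upward. The change was -0.34 ± 0.12 (adjusted p = 0.101), and -0.34 ± 0.09 with the replicate block (adjusted p = 0.0219). Without the shallow library TPCA-1+TNFα 2, which is in neither group, Mef2a passed as well (adjusted p = 0.0131). Leaving it out gave 1041 called genes, against 750 in the main fit. The block thus called 2 of 7 genes, Hdac9 and Mef2a, and 13.5% of all tested genes. When the block was fitted in the 12 libraries without TPCA-1, an alternative chosen after the data were seen, Mef2c was called as well (-0.29 ± 0.08, adjusted p = 0.00875). That fit called 3955 of all genes, against 750 in the model without a block in all 16 libraries. In the model without a block Mef2c stood at -0.27 ± 0.15 (adjusted p = 0.379), with 30.7, 24.7, 33.6 and 22.9 CPM in TMP195+TNFα 1 to 4, against 31.6 to 35.1 CPM in TNFα. Of the macrophage markers 2 of 10 were lower in this comparison, at sums of 12816 to 18207 CPM in TMP195+TNFα and 18200 to 26315 CPM in TNFα. The B cell markers summed to 16.9 to 25.9 CPM in TMP195+TNFα and 28.1 to 52.5 CPM in TNFα, with Ighm lower (-1.11 ± 0.30, adjusted p = 0.0387). The part of either list in these results was not tested.

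The remaining 4 genes did not pass in this comparison under any alternative tried. Hdac5 stood at -0.11 ± 0.20, Mef2d at -0.06 ± 0.19, Hdac4 at -0.08 ± 0.16 and Hdac7 at 0.14 ± 0.21 (adjusted p = 0.835 to 0.931). Their 95% intervals together span -0.53 to 0.58. Hdac4 too was lower in 4 of 4 same-numbered pairs, at log2 ratios of -0.13 to -0.04. Hdac7 was highest in TMP195+TNFα 4 at 7.26 CPM, against 3.66 to 4.76 CPM in the other 3 libraries of that group, and without it the change was -0.09.

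**Figure D2:**
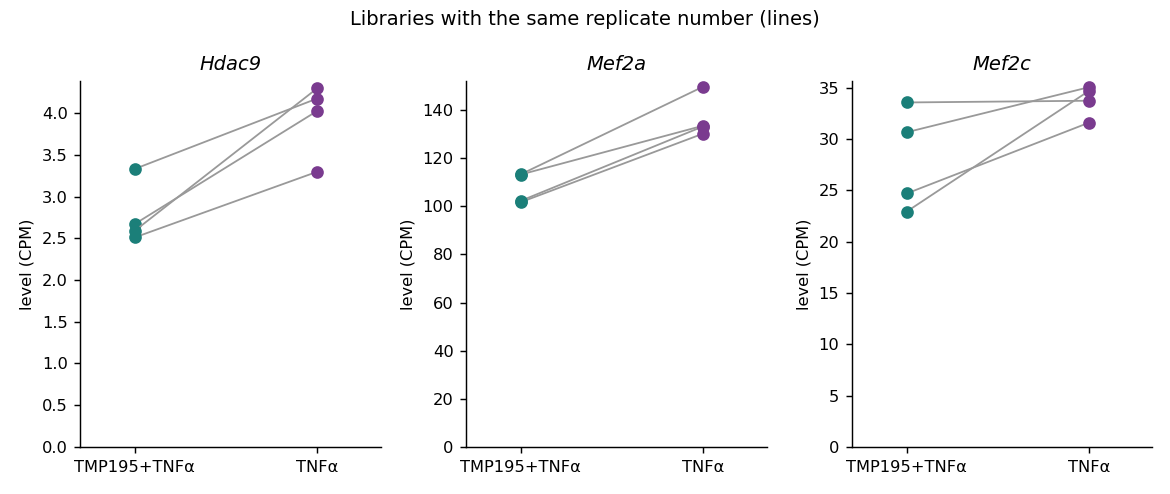
Levels of Hdac9, Mef2a and Mef2c in CPM (vertical axis from 0) in TMP195+TNFα (left) and TNFα (right), with a line between libraries of the same replicate number. All 4 lines of Hdac9 and Mef2a run lower on the TMP195+TNFα side, by 0.33 to 0.73 and 0.24 to 0.40 on the log2 scale, and those of Mef2c by up to 0.60. Hdac4, not shown and not called, was also lower in 4 of 4 pairs, at log2 ratios of -0.13 to -0.04. The share of all tested genes lower in every pair was not counted.

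The third comparison asks the same of the IKK2 inhibitor TPCA-1. In cells given TNFα, TPCA-1 raised Mef2d and lowered Mef2c, 1 gene in each direction, where 9.67% of all tested genes were higher and 9.72% lower. Mef2d had 104.02, 135.7, 149.96 and 146.9 CPM in TPCA-1+TNFα 1 to 4, against 70.6, 80.4, 74.99 and 112.5 CPM in TNFα 1 to 4. Only TPCA-1+TNFα 1 and TNFα 4 overlapped, and the change was 0.66 ± 0.19 (adjusted p = 0.0190). Mef2c had 28.6, 16.8, 25.5 and 22.1 CPM in TPCA-1+TNFα 1 to 4, all below the lowest TNFα library at 31.6 CPM (-0.53 ± 0.16, adjusted p = 0.0245). Leaving out a library ended the call of Mef2d without TNFα 1, 2 or 3 or TPCA-1+TNFα 3 or 4 (adjusted p up to 0.0728). The call of Mef2c ended without TNFα 1 or 3 or TPCA-1+TNFα 2 or 4 (adjusted p up to 0.0678), and without TPCA-1+TNFα 2, the shallow library, its change was -0.42. Both tested B cell markers were higher in this comparison, Cd79b by 1.23 ± 0.20 (adjusted p = 0.000247) and Ighm by 0.94 ± 0.30 (adjusted p = 0.0347), while 4 of 10 macrophage markers were lower and 1 higher, at sums of 13675 to 21573 CPM in TPCA-1+TNFα. The part of the B cell and macrophage markers in these results was not tested.

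Hdac5 had 18.3, 27.97, 31.7 and 24.5 CPM in TPCA-1+TNFα 1 to 4, against 14.9 to 24.5 CPM in TNFα. TPCA-1+TNFα 2 and 3 were above every TNFα library, but the groups overlapped and the gene did not pass (0.44 ± 0.20, adjusted p = 0.13), though it did with limma quality weights (adjusted p = 0.0354), and on leaving out either TPCA-1+TNFα 1 (0.0411 as adjusted p) or TNFα 4 (0.0440). Hdac7 had 2.79, 3.38, 3.52 and 3.94 CPM in TPCA-1+TNFα 1 to 4, all under the lowest TNFα library at 4.08 CPM, yet did not pass either (-0.45 ± 0.22, adjusted p = 0.164). Such a separation held downward, as in Mef2c and Hdac7, for 9.75% of all tested genes, upward for 8.71%, and in either direction for 18.5%. Hdac9 (-0.16 ± 0.19, adjusted p = 0.587), Hdac4 (0.06 ± 0.16, adjusted p = 0.813) and Mef2a (0.04 ± 0.12, adjusted p = 0.859) did not pass. For Hdac9 this was 2.93, 3.24, 4.66 and 3.26 CPM in TPCA-1+TNFα 1 to 4, none of which came near the lowest DMSO library at 8.77 CPM.

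**Figure D3:**
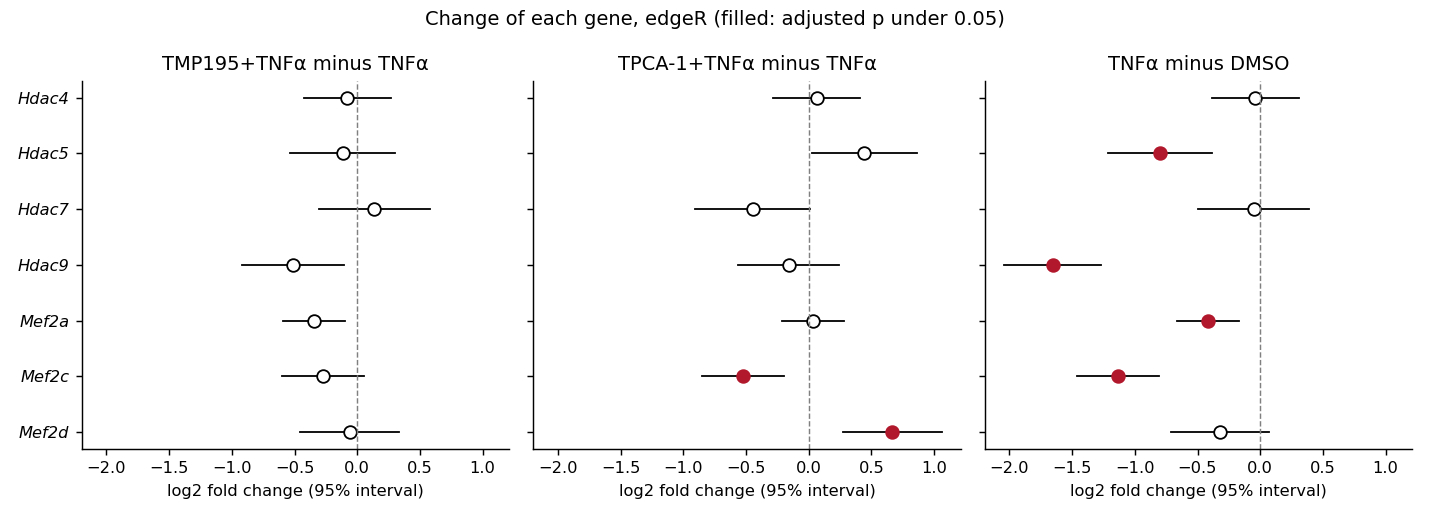
Log2 fold changes (horizontal axis, with 95% intervals as lines) of the 7 genes in TMP195+TNFα against TNFα, TPCA-1+TNFα against TNFα, and TNFα against DMSO, from edgeR over 4 libraries per group. Filled points passed an adjusted p of 0.05: none in the first panel, Mef2c and Mef2d in the second, and Hdac5, Hdac9, Mef2a and Mef2c in the third.

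Set directly against each other, the 2 inhibitors left Hdac5, Mef2a and Mef2d lower with TMP195 than with TPCA-1. These were 3 of 7 genes lower and 0 higher, where 12.6% of all tested genes were lower and 13.1% higher. The difference was -0.72 ± 0.19 for Mef2d (adjusted p = 0.00854), with 70.1 to 104.04 CPM in TMP195+TNFα and 104.02 to 149.96 CPM in TPCA-1+TNFα. It was -0.38 ± 0.12 for Mef2a (adjusted p = 0.0255), with 101.7 to 113.3 CPM in TMP195+TNFα and 101.6 to 165.1 CPM in TPCA-1+TNFα. The lowest Mef2a value was that of the shallow library TPCA-1+TNFα 2, and without it the difference was -0.50 (adjusted p = 0.000534). For Hdac5 it was -0.56 ± 0.20 (adjusted p = 0.048), with 13.4 to 20.99 CPM in TMP195+TNFα and 18.3 to 31.7 CPM in TPCA-1+TNFα. The call of Hdac5 ended on leaving out any of 10 of the 16 libraries (adjusted p up to 0.149), and that of Mef2a without TMP195+TNFα 2 or 4 or TPCA-1+TNFα 1, 3 or 4 (adjusted p up to 0.0763). Hdac7 (0.58 ± 0.22, adjusted p = 0.0585), Hdac9 (-0.35 ± 0.20, adjusted p = 0.2), Mef2c (0.25 ± 0.16, adjusted p = 0.246) and Hdac4 (-0.14 ± 0.17, adjusted p = 0.55) did not pass, but Hdac7 did without TMP195+TNFα 1 (adjusted p = 0.0300) or DMSO 4 (adjusted p = 0.0445) and with DESeq2 (adjusted p = 0.0429). For Hdac9 the 95% interval of the difference was -0.77 to 0.06.

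With either inhibitor Hdac9 and Mef2c were still lower than in DMSO. In TMP195+TNFα 4 of 7 genes were lower than in DMSO, where 13.9% of all tested genes were lower and 27.5% changed in either direction: Hdac9 (-2.17 ± 0.19, adjusted p = 2.57e-07), Mef2c (-1.41 ± 0.16, adjusted p = 2.86e-06), Hdac5 (-0.91 ± 0.20, adjusted p = 0.00195) and Mef2a (-0.76 ± 0.12, adjusted p = 0.000104). The level of Hdac9 in TMP195+TNFα was 4.49-fold lower than in DMSO. In these 4 genes the groups did not overlap, as in 30.4% of all tested genes in either direction. Mef2d stood at -0.38 ± 0.19 (adjusted p = 0.149), at -0.38 ± 0.12 with the replicate block (adjusted p = 0.0201) and at -0.36 ± 0.13 with limma quality weights (adjusted p = 0.0397). In TPCA-1+TNFα 3 of 7 genes were lower than in DMSO, where 15.5% of all tested genes were lower and 30.3% changed in either direction: Hdac9 (-1.81 ± 0.19, adjusted p = 1.67e-06), Mef2c (-1.66 ± 0.16, adjusted p = 6.38e-07) and Mef2a (-0.38 ± 0.12, adjusted p = 0.0213). These 3 genes and Hdac7 did not overlap between the groups, as in 26.2% of all tested genes in either direction. The Mef2a call there ended without DMSO 3 (adjusted p = 0.0598) and in a fit of only these groups (adjusted p = 0.0861). Hdac5 was not called lower in TPCA-1+TNFα than in DMSO (-0.35 ± 0.20, adjusted p = 0.185), nor was Mef2d called higher (0.34 ± 0.19, adjusted p = 0.174). Mef2d was called higher without DMSO 4 (0.51, adjusted p = 0.0419) and with limma quality weights (0.46, adjusted p = 0.0278). The contrasts with TNFα and with DMSO share control libraries and are not independent of each other.

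Ordered by mean level, Hdac9 ran from 2.78 ± 0.38 CPM in TMP195+TNFα through 3.52 ± 0.77 in TPCA-1+TNFα and 3.95 ± 0.45 in TNFα to 12.5 ± 2.59 CPM in DMSO, and only the step to DMSO passed a test. For Mef2c the order was TPCA-1+TNFα (23.3 ± 5.10 CPM), TMP195+TNFα (27.98 ± 4.99 CPM), TNFα (33.8 ± 1.55 CPM) and DMSO (74.1 ± 10.7 CPM), and again only the last step between neighbours passed. Mef2d had a different order, with TMP195+TNFα at 81.2 ± 15.9 CPM, TNFα at 84.6 ± 19.0 CPM, DMSO at 105.7 ± 26.1 CPM and TPCA-1+TNFα at 134.1 ± 20.995 CPM. None of its neighbours differed by the test without a block. For Hdac5 the order was TMP195+TNFα (17.3 ± 3.10 CPM), TNFα (18.8 ± 4.09 CPM), TPCA-1+TNFα (25.6 ± 5.71 CPM) and DMSO (32.6 ± 7.45 CPM), where no step between neighbours passed. Mef2a ran from TMP195+TNFα (107.6 ± 6.50 CPM) through TNFα (136.6 ± 8.83 CPM) and TPCA-1+TNFα (139.8 ± 26.96 CPM) to DMSO (182.3 ± 11.5 CPM), with the last step past the test. The group means of Hdac4 lay between 11.6 and 12.7 CPM and those of Hdac7 between 3.40 and 5.08 CPM, with no pair of groups past the test.

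The make-up of each family changed with these levels. On the per-length scale Hdac9 held 5.29% ± 1.00 of the summed class IIa level in TMP195+TNFα, 5.38% ± 0.56 in TPCA-1+TNFα, 7.04% ± 0.73 in TNFα and 14.1% ± 2.48 in DMSO. Its 12 shares in the libraries given TNFα, up to 7.70%, lay below its 4 shares in DMSO, from 11.6%. Hdac5 was the most abundant member in every group, from 54.1% ± 3.54 in TMP195+TNFα to 64.9% ± 4.09 in TPCA-1+TNFα, with 55.0% ± 2.04 in TNFα and 61.0% ± 2.18 in DMSO. The summed class IIa level was 3.65 ± 0.62 RPKM in TMP195+TNFα, 4.46 ± 0.78 in TPCA-1+TNFα, 3.87 ± 0.70 in TNFα and 6.07 ± 1.24 RPKM in DMSO. Among the MEF2 genes Mef2c held 7.93% ± 1.66 in TMP195+TNFα, 4.45% ± 1.09 in TPCA-1+TNFα, 8.46% ± 0.85 in TNFα and 13.7% ± 2.58 in DMSO. Mef2d was the largest part throughout, with 59.4% ± 5.46 in TMP195+TNFα, 66.9% ± 7.08 in TPCA-1+TNFα, 54.8% ± 5.80 in TNFα and 50.3% ± 6.23 in DMSO. These shares are descriptions without a test.

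**Figure D4:**
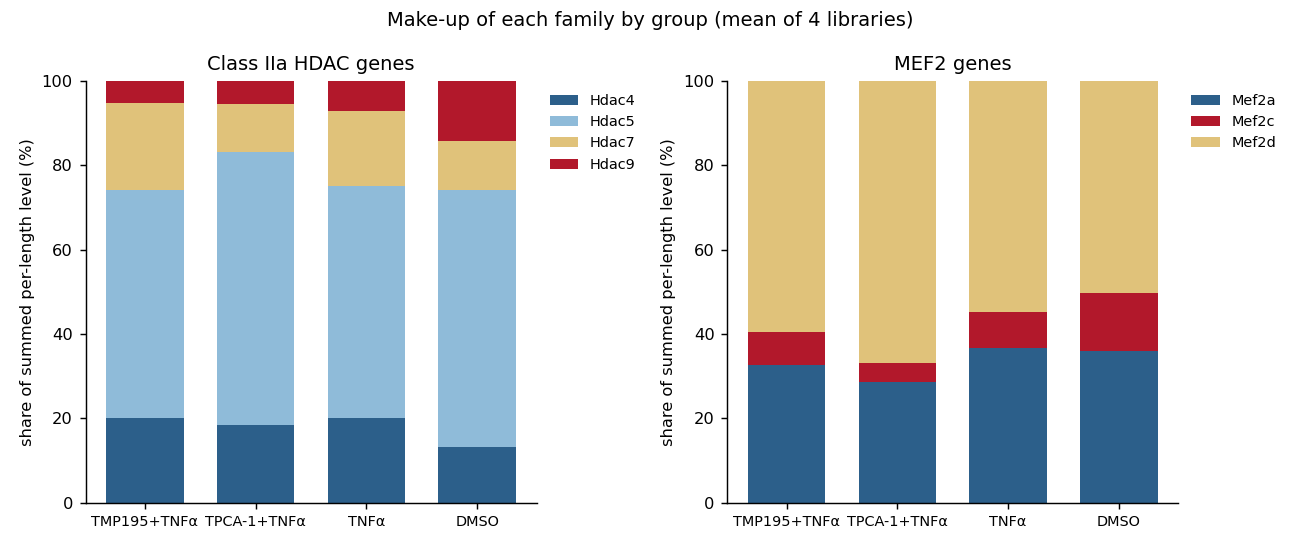
Share of each gene in the summed per-length level of its family (vertical axis, percent, mean of 4 libraries) in the 4 groups, for the class IIa HDAC genes (left) and the MEF2 genes (right). Hdac9 takes 5.29% to 7.04% of the class IIa level in the groups given TNFα and 14.1% in DMSO, and Mef2c takes 4.45% to 8.46% of the MEF2 level in the groups given TNFα and 13.7% in DMSO.

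The wider pathway was covered by 6 lists of 75 genes, of which 62 were tested. In TNFα against DMSO 14 of the 62 passed, where 23.4% of all tested genes did, 10.9% higher and 12.4% lower. Of the 14, Map2k6 and Nr4a1 had too few reads to be tested without the DMSO libraries, and are given only as levels. Genes named here beyond the rule were chosen after their values were seen. They are Prkd3, Ywhah, Sfn, Mmp10, Sik2, Mapk14, Jun, Egr1 and, for TNFα against DMSO, Sik1 and Klf4. Of 6 tested other HDAC genes none passed in any of the 3 comparisons (median log2 fold change -0.03 in TNFα against DMSO). Of 13 corepressor genes 1 rose, the MEF2 repressor Cabin1 (0.53 ± 0.19, adjusted p = 0.0494), and 1 fell, the heterochromatin protein gene Cbx5 (-0.40 ± 0.10, adjusted p = 0.0062). The call of Cabin1 ended on leaving out any of 10 libraries (adjusted p up to 0.157).

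Kinases and phosphatases that act on class IIa HDACs had 1 gene higher and 3 lower of 16 after TNFα, together a share near that of all tested genes. The CaM kinase gene Camk1 had 45.1 to 68.2 CPM in TNFα and 80.5 to 127.2 CPM in DMSO (-0.90 ± 0.15, adjusted p = 0.000253). Sik1, a salt-inducible kinase, had 11.5 to 14.4 CPM in TNFα and 14.6 to 25.7 CPM in DMSO (-0.71 ± 0.16, adjusted p = 0.00248). In neither gene did the groups overlap. Prkd3, a protein kinase D gene, fell too (-0.62 ± 0.18, adjusted p = 0.0161), a call that ended without DMSO 1 or 3 or TNFα 4, and the phosphatase catalytic subunit gene Ppp2cb rose (0.46 ± 0.09, adjusted p = 0.000728). Of 7 genes for 14-3-3 proteins 3 rose, Ywhaz (0.29 ± 0.08), Ywhag (0.37 ± 0.12) and Sfn (1.08 ± 0.37), and Ywhah fell (-0.38 ± 0.13), at adjusted p from 0.0108 to 0.0434, where 10.9% of all tested genes rose and 12.4% fell. The calls of Ywhag, Sfn and Ywhah ended on leaving out any of 6, 9 and 7 libraries (adjusted p up to 0.115, 0.133 and 0.111).

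Of 14 tested MEF2 activators and coactivators none rose after TNFα, where 10.9% of all tested genes rose and 12.4% fell. Map2k6, a kinase upstream of p38, had 0.16 to 0.43 CPM in TNFα and 0.89 to 1.88 CPM in DMSO, with 2 to 42 reads per library. It reached the filter of 0.491 CPM in the 4 DMSO libraries and in none of the other 12. Known MEF2 targets from lymphocytes, endothelium and muscle were mostly too low to test, with 6 of 15 tested. Of these Klf2, the endothelial flow-response factor, fell with TNFα (-1.11 ± 0.25, adjusted p = 0.00344), at 1.64 to 2.89 CPM in TNFα and 3.68 to 6.04 CPM in DMSO. The matrix metalloproteinase gene Mmp10 fell too (-1.88 ± 0.52, adjusted p = 0.0127), with 3 to 76 reads per library and a call that ended without DMSO 2 (adjusted p = 0.0665). The nuclear receptor gene Nr4a1 had 0.29 to 0.39 CPM in TNFα and 0.69 to 1.52 CPM in DMSO, with 1 to 34 reads per library, and reached the filter in 4 DMSO and 2 TMP195+TNFα libraries. The remaining tested targets, Jun (0.07 ± 0.13), Klf4 (0.18 ± 0.23) and Egr1 (-0.46 ± 0.77), did not pass in TNFα against DMSO (adjusted p = 0.655 to 0.771).

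The inhibitors were set against TNFα alone in the same lists. In TMP195+TNFα against TNFα 2 of the 62 did, where 5.95% of all tested genes passed. Camk1d, a CaM kinase gene, had 71.9 to 81.5 CPM in TMP195+TNFα and 108.7 to 125.7 CPM in TNFα, without overlap (-0.64 ± 0.13, adjusted p = 0.00618). Ywhaz fell (-0.27 ± 0.08, adjusted p = 0.0499), a call that ended on leaving out any of 13 libraries (adjusted p up to 0.134). None of the 6 tested MEF2 targets passed there. In TPCA-1+TNFα against TNFα 7 of the 62 passed, where 19.4% of all tested genes did. Sik1 had 21.9 to 30.7 CPM in TPCA-1+TNFα and 11.5 to 14.4 CPM in TNFα (1.04 ± 0.16, adjusted p = 0.000157), and Sik2 rose too (0.36 ± 0.12, adjusted p = 0.0465), a call that ended on leaving out any of 12 libraries (adjusted p up to 0.169). Klf4, another MEF2 target, had 2.79 to 5.59 CPM in TPCA-1+TNFα and 1.36 to 2.12 CPM in TNFα (1.16 ± 0.22, adjusted p = 0.00145). Map2k3, like Map2k6 a kinase upstream of p38, rose (0.49 ± 0.11, adjusted p = 0.00394), while Prkaa1 (-0.59 ± 0.18), Ppp3cb (-0.45 ± 0.15) and Mapk14, which encodes p38 itself (-0.27 ± 0.09), fell, at adjusted p from 0.0328 to 0.0472. The calls of Prkaa1, Ppp3cb and Mapk14 ended on leaving out any of 5, 6 and 9 libraries (adjusted p up to 0.0908, 0.114 and 0.0964).

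**Figure D5:**
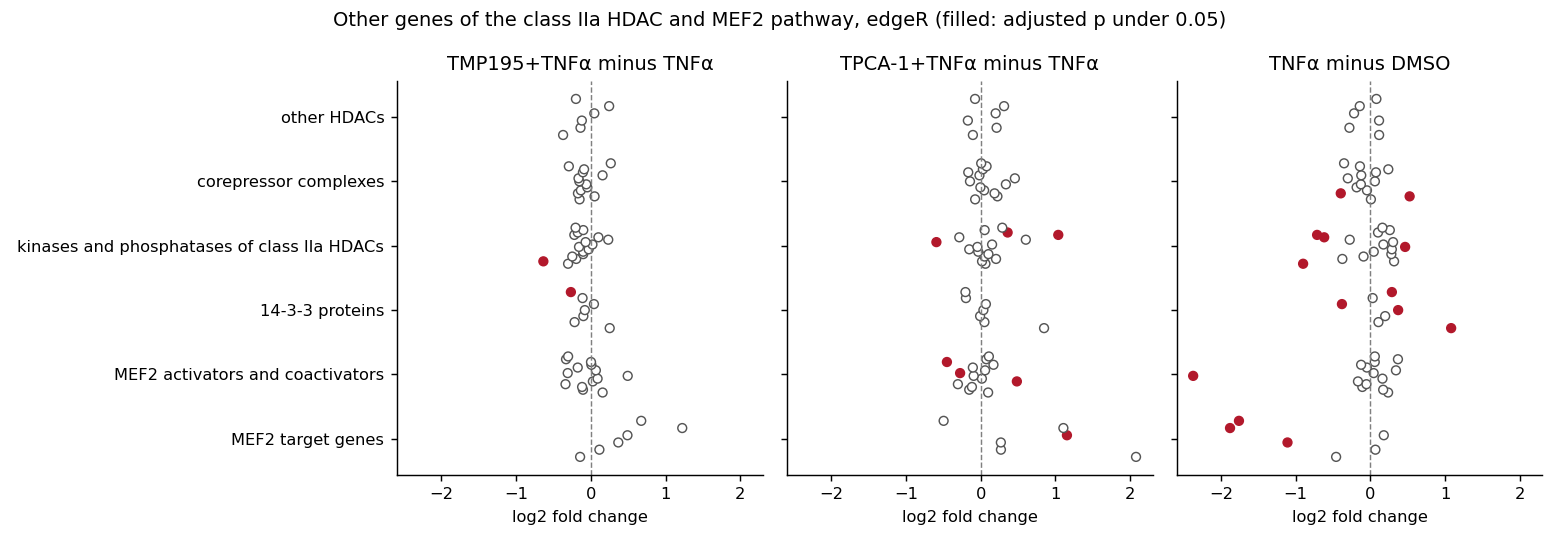
Log2 fold changes (horizontal axis) of the 62 tested genes of 6 pathway lists (vertical axis, 1 point per gene) in TMP195+TNFα against TNFα, TPCA-1+TNFα against TNFα, and TNFα against DMSO, from edgeR over 4 libraries per group. Filled points passed an adjusted p of 0.05, which 2, 7 and 14 genes did. The 14 include Map2k6 and Nr4a1, which had too few reads to be tested without the DMSO libraries.

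Genes whose levels followed each member most closely were found by the Pearson correlation of log2(CPM + 0.5) over the 16 libraries, which share the 4 groups, among about 8547 genes with a mean of at least 5 CPM. Hdac9 was followed most closely by Prkacb, a catalytic subunit gene of protein kinase A (r = 0.978), Specc1 (r = 0.977) and Ehd4 (r = 0.973). Prkacb averaged 128.2 CPM in TMP195+TNFα, 146.1 CPM in TPCA-1+TNFα, 162.03 CPM in TNFα and 255.6 CPM in DMSO, the same order as Hdac9. Mef2c was followed by the lysosomal thioesterase gene Ppt1 (r = 0.972), the Cdc42 exchange factor gene Fgd4 (r = 0.972) and Frmd4b (r = 0.969). Hdac5 went with the clathrin adaptor gene Ap1b1 (r = 0.964), the CD47 receptor gene Sirpa (r = 0.964) and Iqsec2 (r = 0.953). Mef2d went with Plekho2 (r = 0.964), Nfic (r = 0.959) and the actin gene Actg1 (r = 0.953). Mef2a went with the biliverdin reductase gene Blvra (r = 0.959), the protein S gene Pros1 (r = 0.949) and Abca9 (r = 0.949). For Hdac4 and Hdac7 the closest values were lower, with Maml1 (r = 0.929), Arhgef2 (r = 0.886) and Zfp865 (r = 0.882) for Hdac4, and Ttll3 (r = 0.836), Abr (r = 0.803) and Prpf8 (r = 0.80) for Hdac7. These values describe likeness over the libraries, and no test was made.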

How the data were processed

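RNA-seq libraries of 16 samples were used, 4 in each of 4 groups taken from the labels. The deposited files hold whole-number counts of reads per gene, made with STAR 2.6.1d and the build mm10 or GRCm38 per the submitters' processing notes. Of 3 deposited count columns the one counted on the strand that held most reads was used; reads on the other strand came to 3.19% to 3.72%. Summary lines for unmapped and ambiguous reads were left out of library sizes. Of 54838 identifiers 54809 matched GENCODE M21, which gave names and positions.

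Counts were tested with edgeR 4.0.16 in R 4.3.3 (TMM scaling, filterByExpr, quasi-likelihood F test, 1 mean per group in all 16 libraries, 2-sided), with p-values adjusted by Benjamini-Hochberg over 12612 genes and a threshold of 0.05. CPM values are TMM-scaled, and each SE is the log2 fold change over the square root of F. A count of 3 reads corresponds to 0.095 to 0.401 CPM, which covers counting error only. The fit was checked on simulated counts. Alternatives were RLE factors, total counts, DESeq2 1.42.0, limma 3.58.1 with voom quality weights, other filters, unstranded counts, only the groups compared, a replicate block, and leaving out each library.

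Same-numbered libraries deviated together in TMP195+TNFα, TNFα and DMSO (r = 0.270 to 0.681) but not in every pair with TPCA-1+TNFα (r = -0.04 to 0.51). Each DMSO library correlated best with its own number in TNFα and in TMP195+TNFα, and each TNFα library with its own in TMP195+TNFα. The labels do not state what a number marks; this pairing comes from the data.

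The members and lists were chosen with earlier results of these data known. Named genes were all 7 members, up to 2 called genes per pathway list and contrast with the smallest adjusted p, and the 3 most similar genes per member. The top gene of each marker list and Apoe were named too.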

Additional observations from a re-analysis of the deposited data

Results flagged for a closer look

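Hdac7 in DMSO replicate 4 stood at 6.40 CPM, against 4.09 to 4.41 CPM in the other 3 DMSO libraries. Its gap to the nearest library was 0.833 of the group's range, just past Dixon's limit for 4 samples. Of 28 sets of 4 libraries examined (7 genes in 4 groups) 1 stood out in this way, and chance flags about 1 in 20. Without that library the change of Hdac7 in TNFα against DMSO was 0.11, in place of -0.05, and passed in neither case.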

How the results depend on the processing

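The falls of Hdac9, Mef2c and Hdac5 in TNFα against DMSO, and of Hdac9, Mef2c, Hdac5 and Mef2a in TMP195+TNFα against DMSO, passed under each alternative run. Of 399 values of the 7 genes under other settings 369 kept their direction and side of the threshold, 22 newly passed, 5 no longer passed and 3 changed sign; of 672 values without 1 library these were 621, 6, 26 and 19. Of 221 such values of pathway genes 200 were kept and 21 no longer passed, and of 368 without 1 library 287 and 81. The cause of these changes was not tested. Hdac9 and Hdac7, at 24 and 25 reads in the shallowest library, are the genes most limited by depth.

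Sign changes concerned uncalled values. Hdac4 stood at 0.0324 in TNFα against DMSO with limma, and in TPCA-1+TNFα against DMSO at -0.0239 with total counts and -0.0170 with unstranded counts. Without 1 library Hdac4 ranged from -0.13 to 0.13 in TNFα against DMSO, -0.15 to 0.00168 in TMP195+TNFα against TNFα, -0.00611 to 0.14 in TPCA-1+TNFα against TNFα, -0.22 to 0.0490 in TMP195+TNFα against DMSO and -0.0760 to 0.19 in TPCA-1+TNFα against DMSO. Hdac7 ranged from -0.17 to 0.11 in TNFα against DMSO, -0.0917 to 0.26 in TMP195+TNFα against TNFα and -0.14 to 0.24 in TMP195+TNFα against DMSO. In TMP195+TNFα against TNFα Hdac5 ranged from -0.22 to 0.0338 and Mef2d from -0.20 to 0.10, and in TPCA-1+TNFα against TNFα Mef2a ranged from -0.0620 to 0.15.

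In TMP195+TNFα against TNFα 750 genes were called, against 1209 with DESeq2, 1778 with limma, 1699 with the replicate block, 3955 with the replicate block in 12 libraries and 446 to 1041 without 1 library. Of the 7 genes 1 was called with DESeq2, 1 with limma, 1 in a fit of only these groups, 2 with the replicate block, 3 with the block in 12 libraries and 0 to 1 without 1 library. Of the pathway genes 4 were called with RLE factors, 1 with total counts, 6 with DESeq2, 8 with limma, 1 without a filter, 4 above a mean of 1 CPM, 1 with unstranded counts, 7 with the block, 20 with the block in 12 libraries and 1 to 4 without 1 library.

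In TPCA-1+TNFα against TNFα 2446 genes were called, against 1551 in a fit of only these groups, 1650 to 3313 without 1 library and 3835 with the replicate block. There the block called 4 of the 7 genes, against 0 to 3 without 1 library, and 14 pathway genes, against 4 with only these groups and 3 to 10 without 1 library. In TMP195+TNFα against TPCA-1+TNFα 1 of the 7 was called with only these groups and 1 to 4 without 1 library. Of all genes 3247 were called in the main fit, fewer with only these groups and 2463 to 3888 without 1 library. In TPCA-1+TNFα against DMSO the block called 5 of the 7, against 2 to 4 without 1 library. Of all genes the main fit called 3820 there, the block more, and the fits without 1 library 2933 to 4492. The block in 12 libraries called 6282 genes and 34 pathway genes in TNFα against DMSO (9 to 17 pathway genes without 1 library), and 6642 genes in TMP195+TNFα against DMSO. Not every TPCA-1+TNFα library deviated with its number in the other groups. Among the TPCA-1+TNFα libraries, numbers 1 and 3 of each other group correlated best with their own number (r = 0.138 to 0.511). Numbers 2 and 4 of the other groups did not (r = -0.04 to 0.155). With the block, the adjusted p (edgeR, Benjamini-Hochberg) was 0.0293 for Hdac5 and 0.0258 for Hdac7 in TPCA-1+TNFα against TNFα, 0.00566 for Hdac7 in TMP195+TNFα against TPCA-1+TNFα, and 0.011 for Hdac7 and 0.0247 for Mef2d in TPCA-1+TNFα against DMSO. The comparison of protein sequences was not run.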

Other observations

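The marker lists of other cell types moved with the groups, each over few tested genes. The 6 neutrophil markers summed to 81.9 to 111.9 CPM in TMP195+TNFα, 51.4 to 79.4 CPM in TPCA-1+TNFα, 126.8 to 160.3 CPM in TNFα and 39.3 to 77.7 CPM in DMSO, and S100a9, Ly6g, Mpo and Elane stayed under 3 reads in each library. The S100 protein gene S100a8 averaged 66.04 CPM in TNFα and 1.56 CPM in DMSO (log2 fold change 5.38, edgeR adjusted p = 6.83e-08), and the G-CSF receptor gene Csf3r, the most abundant of the list, averaged 80.3 CPM in TNFα and 53.7 CPM in DMSO (0.58, adjusted p = 0.0879). The plasmacytoid dendritic cell markers, led by the interferon-induced gene Bst2, summed to 102.8 to 149.1 CPM in TPCA-1+TNFα, against 300.04 to 454.6 CPM in TNFα, and Siglech and Klk1 were under 3 reads. The platelet factor gene Pf4, which led the megakaryocyte and erythroid list, had 483 to 1065 CPM in TPCA-1+TNFα, against 1269 to 1694 CPM in TNFα. The T and NK cell list, led by Cd4, summed to 4.86 to 6.77 CPM in TNFα, against 10.2 to 13.8 CPM in DMSO. The muscle, stromal and endothelial list summed to 27.2 to 55.4 CPM in TPCA-1+TNFα, against 18.5 to 25.1 CPM in TNFα. Its adhesion molecule gene Pecam1 averaged 24.1 CPM in TPCA-1+TNFα and 5.60 CPM in TNFα (2.08, adjusted p = 4.24e-05), while the actin gene Acta2, the most abundant over all libraries, averaged 11.9 CPM in TPCA-1+TNFα and 15.1 CPM in TNFα (-0.37, adjusted p = 0.148). S100a8 and Pecam1 were chosen after their values were seen.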
